A study of Mus musculus with 11 samples.

Results

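The response to rapamycin was read on 5 of the 11 arrays of the series, those of cells that carried the control siRNA against luciferase, a firefly gene that mouse cells lack. The arrays were chosen by their labels: 3 of luciferase siRNA with rapamycin and 2 of luciferase siRNA with ethanol, the control treatment. The cells of all groups are mouse embryonic fibroblasts of a line labelled p53-/- TSC2-/-, kept in a high-glucose medium with serum. They had siRNA for 3 days by the labels (2.5 days in the design text) and then 20 nM rapamycin or ethanol for 12 h. The other 6 arrays carried an siRNA against Crebl2 by the labels (Creb2 in the design text), 3 with rapamycin and 3 with ethanol, and enter below as values set beside those of the luciferase siRNA arrays, and in alternative fits of the closing section. Both TSC2 and p53 are absent from the treated cells and from their controls alike, so no array shows the response of a cell with TSC2. The labels do not say whether replicates came from separate cultures, and p-values then measure only the spread between these samples, which may be technical.

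Rapamycin binds FKBP12 and the pair inhibits mTORC1, the kinase complex that couples growth factors and amino acids to protein synthesis, nucleotide and lipid synthesis, and that holds back autophagy. The TSC1-TSC2 complex turns off the small GTPase Rheb, the activator of mTORC1, so cells without TSC2 keep mTORC1 active when growth factors are low. Known transcriptional arms of mTORC1 run through ATF4 (amino acid supply), HIF1 (glycolysis), SREBP (lipids), MYC and the TFEB family (lysosomes), and FoxO factors act on the opposite side, under control of the kinase Akt.

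Signals are given as the authors' normalized intensity, an arbitrary linear unit of brightness of a bead probe, and changes as the difference of mean log2 intensity, rapamycin minus ethanol. Array medians lay between 111.6 and 112.4 and 46.9% to 48.5% of probes were above background. Log2 levels correlated across genes at 0.9943 to 0.996 within a group and at 0.982 to 0.9832 across groups. A principal component that held 70.2% of the variance placed the rapamycin arrays at 13.4 to 14.8 and the ethanol arrays at -21.8 and -20.7. Intensities were not background-corrected, so the folds of dim genes are understated here. Background correction (normexp) raised the size of the log2 change by over 1.5 times in 776 of the genes that passed, and such values are given where they touch a gene named below. The number of arrays, 5, limits precision. Tsc2 transcript was measured at 894, 889 and 1042 on the rapamycin arrays and 1212 and 1253 on the ethanol arrays, a change of -0.39 ± 0.11 (SE, adjusted p = 0.00957). That call was lost with background correction (adjusted p = 0.103) and without ethanol array 1 (-0.42, adjusted p = 0.0607) or 2 (-0.37, adjusted p = 0.101). The sources used here do not say which part of the gene is missing, so the probe checks nothing about its loss. Fewer cells of a kind and less RNA per cell cannot be told apart in such bulk samples.

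Of 13752 genes tested with limma, 3268 passed an adjusted p of 0.05, which is 23.8% of them: 1778 were higher with rapamycin (12.9%) and 1490 lower (10.8%). The median size of a change among the genes that passed was 0.44 on the log2 scale, a fold of 1.36. Only 51 of the higher and 70 of the lower genes changed by 1 or more, 6 fell by 2 or more, and none rose by 2. The median change over all genes tested was 0.02. For 48.3% of all genes the rapamycin and ethanol arrays did not overlap. Most genes named below were picked because they passed, so lack of overlap is nearly given for them. Statements below that the groups lay apart describe the values and add no support to a call. Of the genes that passed, 1317 (40.3%) also passed in each of 5 fits that left out 1 array, and 1366 passed with background correction, with no change of sign. Without ethanol array 1 or 2 the number of genes that passed was 1877 or 1791, so single genes are named below mainly where every such fit kept the call. For lists, the counts of higher and then lower members are mostly added, in that order, for each left-out array or background correction that moved the number passing by over 1.5 times. Such counts are to be set beside the smaller number of all genes that passed in the same fit. With background correction 808 of all 13752 genes were higher and 673 lower.

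Of the genes that passed, 1338 had several probes above background. More than 1 of these probes passed in the same direction for 580 of them, and a probe passed in the opposite direction for 16. Among the genes described below, only 1 of several probes passed for Tsc2, Per2, Tsc1, Sesn2, Pik3r3, Pdgfra, Ddr1, Fbxo32, Tsc22d1, Ypel3, Calcoco1, Bcat1, Abat, Ung, Tipin, Fbn1, Matn2, Ilk, Myl9, Gli2, Sufu, Gbp2, Fosl2, Dusp4, Bid, Lrp8, Gstm1, Rxrb, Acot2 and Sema3c. The brightest probe stands for each gene, so these calls rest on that probe.

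**Figure D1:**
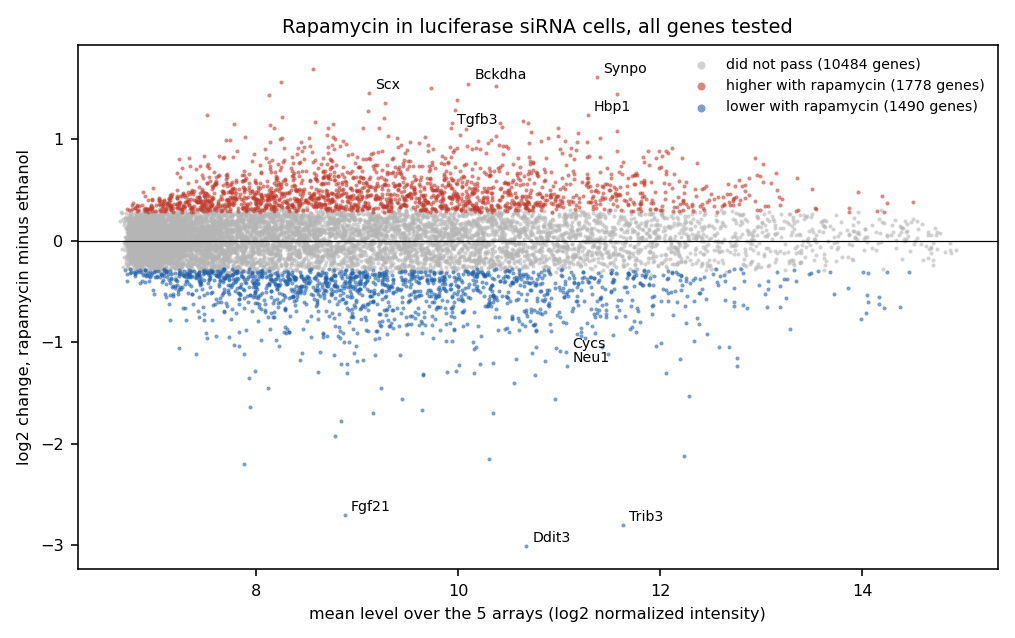
Log2 change, rapamycin minus ethanol, of each of the 13752 genes tested (vertical axis) against its mean log2 normalized intensity over the 5 arrays (horizontal axis). Red points are the 1778 genes higher with rapamycin, blue points the 1490 lower and grey points the 10484 that did not pass. The falls reach further, to -3.00 for Ddit3, than the rises, whose largest is 1.69.

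The 3 deepest falls were those of Ddit3 at -3.00 (adjusted p = 4.1e-12), Trib3 at -2.80 (adjusted p = 1.05e-12) and Fgf21 at -2.70 (adjusted p = 2.17e-11), all known to answer to ATF4. Promoters of 4 lower genes of that kind are shown, picked after their values and matches were seen because the letters of the ATF4 element can be read there. The element searched was TGATGNAAN, the C/EBP-ATF response element, on both strands and in the 300 bases from 250 before to 50 after a start site (RefSeq, build GRCm38.p6). Such windows were found for 9721 of the 13752 genes tested. Of the 12 largest falls, 11 had a window and 3 held a match (Trib3, Fgf21 and Chac1), while Ddit3 and Ddit4 held none. Chac1 changed by -2.12 ± 0.10 (SE, adjusted p = 1.18e-11). The fall without a window was that of Slc7a3, of the amino acid transporters. It was at 833, 845 and 757 on the rapamycin arrays and 2702 and 2564 on the ethanol arrays, a change of -1.70 ± 0.10 (SE, adjusted p = 8.1e-10). Capitals mark the matches below, which are a description of the letters and not of bound sites.
Trib3, chr2:152344011-152344310, minus strand: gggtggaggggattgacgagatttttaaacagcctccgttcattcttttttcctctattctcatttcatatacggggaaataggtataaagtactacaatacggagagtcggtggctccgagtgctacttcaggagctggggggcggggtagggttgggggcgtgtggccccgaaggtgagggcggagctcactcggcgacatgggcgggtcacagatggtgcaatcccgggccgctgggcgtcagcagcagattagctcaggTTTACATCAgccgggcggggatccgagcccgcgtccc
Fgf21, chr7:45615441-45615740, minus strand: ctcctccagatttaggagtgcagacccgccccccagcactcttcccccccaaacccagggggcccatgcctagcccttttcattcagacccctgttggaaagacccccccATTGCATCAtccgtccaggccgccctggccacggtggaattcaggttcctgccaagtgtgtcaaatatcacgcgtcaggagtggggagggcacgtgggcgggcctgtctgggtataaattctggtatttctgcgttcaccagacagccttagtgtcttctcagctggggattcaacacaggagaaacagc
Slc7a11, chr3:50443564-50443863, minus strand: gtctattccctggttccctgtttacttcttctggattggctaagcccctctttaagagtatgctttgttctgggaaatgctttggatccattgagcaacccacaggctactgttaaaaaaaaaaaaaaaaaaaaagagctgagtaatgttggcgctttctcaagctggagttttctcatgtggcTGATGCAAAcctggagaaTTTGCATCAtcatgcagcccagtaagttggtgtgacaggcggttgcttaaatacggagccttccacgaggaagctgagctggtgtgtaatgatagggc
Aars, chr8:111033592-111033891, plus strand: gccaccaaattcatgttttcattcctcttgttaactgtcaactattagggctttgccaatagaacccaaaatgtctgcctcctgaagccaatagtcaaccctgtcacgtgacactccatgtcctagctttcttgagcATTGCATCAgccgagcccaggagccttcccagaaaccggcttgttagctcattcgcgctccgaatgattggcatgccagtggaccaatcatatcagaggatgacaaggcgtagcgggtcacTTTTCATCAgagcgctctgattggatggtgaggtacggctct
Trib3 and Fgf21 hold 1 match each, Slc7a11 and Aars 2 each. In Slc7a11 the matches stand a few bases apart on opposite strands.

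Among the windows of all tested genes, 2.57% held this element (318 of 12377). The share was 3.81% for genes lower with rapamycin and 1.81% for genes higher. Among the lower members of the ATF4 list it was 34.5% (10 of 29 windows), and among the lower cytosolic tRNA synthetases 37.5% (3 of 8). In those 8 windows the E-box CACGTG was as frequent, at 37.5%. TCACGTGA, which contains the E-box and is bound by TFEB, was in 2 of the 8. It was in 1.74% of all tested windows, 1.51% of the lower and 2.34% of the higher. Many members of the ATF4 list are in it because ATF4 elements were found in them, so the 34.5% is a property of the list. The E-box, read by the clock factors and by MYC, was in 9.48% of the windows of tested genes, 13.2% of the lower and 8.12% of the higher. An E2F element, TTTNGCGC, was in 2.28% of all tested windows, 3.74% of the lower and 1.81% of the higher. In the windows of the replication genes that fell it was in 22.6% (7 of 31) and the E-box in 19.4% (6 of 31). Replication genes are well-known E2F targets, so that share too is a property of the list. The FoxO element GTAAACA was in 2.66% of all tested windows, 3.10% of the higher and 2.01% of the lower. The last element searched, TGACGTCA, was in 2.83% of all tested windows, 2.28% of the higher and 3.81% of the lower.

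Ciart, a repressor of the circadian clock, was among the 12 largest falls, and its window holds 3 matches of the E-box, in capitals. The Fgf21 window above holds the E-box as well.
Ciart, chr3:95882179-95882478, minus strand: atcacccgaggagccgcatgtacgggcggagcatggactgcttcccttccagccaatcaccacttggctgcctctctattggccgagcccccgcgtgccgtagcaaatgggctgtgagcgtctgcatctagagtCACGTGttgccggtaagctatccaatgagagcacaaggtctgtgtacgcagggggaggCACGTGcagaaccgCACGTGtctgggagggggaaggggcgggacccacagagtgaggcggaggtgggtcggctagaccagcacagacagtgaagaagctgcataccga
Its level was 132, 132 and 120.5 on the rapamycin arrays and 569 and 604 on the ethanol arrays. The change was -2.20 ± 0.10 (SE, adjusted p = 1.18e-11) and, after background correction, -3.69. All 3 probes of the gene passed. In the circadian list 1 of 15 members was higher and 6 lower, a count of 0 and 2 without ethanol array 1, 0 and 2 without ethanol array 2 and 0 and 2 with background correction. Per2, another clock repressor, changed by -0.50 (adjusted p = 0.00164), a call that was lost without ethanol array 1 (-0.38, adjusted p = 0.0753).

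None of the 10 tested subunits of mTORC1 and mTORC2 passed, with a median change of -0.02. With rapamycin array 1 left out 1 of them did.  Upstream of the complex, 6 of 36 sensors and regulators were higher and 7 lower, or 3 and 5 without ethanol array 1, 2 and 5 without ethanol array 2 and 3 and 4 with background correction. The largest change of this list by far was the fall of Ddit4. It was at 706, 675 and 713 on the rapamycin arrays and 3092 and 3112 on the ethanol arrays. The change of Ddit4 was -2.15 ± 0.10 (SE, adjusted p = 1.18e-11). Seh1l, which encodes a subunit of the GATOR2 complex in amino acid sensing, was at 340.1, 366 and 341 on the rapamycin arrays and 527 and 508 on the ethanol arrays. It changed by -0.57 ± 0.10 (SE, adjusted p = 0.000287). Tsc1, the partner of TSC2, was dim, at 172, 171 and 156 on the rapamycin arrays and 228 and 267 on the ethanol arrays. The arrays did not overlap, and Tsc1 changed by -0.57 ± 0.11 (SE, adjusted p = 0.000488), or -1.03 after background correction. Sesn2, a leucine sensor and also an ATF4 target, changed by -0.53 (adjusted p = 0.000652, or -1.27 after background correction). Lamtor2, a part of the Ragulator scaffold on the lysosome, went the other way and rose by 0.56 (adjusted p = 0.000938).

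Downstream, 5 of 23 effectors were higher and 5 lower, or 2 and 4 with background correction. Pdcd4, which blocks the helicase eIF4A and whose protein is known to be marked for decay by the mTORC1 target S6K, stood at 4652, 4249 and 4823 on the rapamycin arrays and 2588 and 2579 on the ethanol arrays. Each rapamycin array was well above both ethanol arrays, and the change was 0.82 ± 0.10 (SE, adjusted p = 7.27e-06). Eif4b, a cofactor of the same helicase and another S6K substrate, was at 406, 408 and 471 on the rapamycin arrays and 271 and 231 on the ethanol arrays. It rose by 0.77 ± 0.11 (SE, adjusted p = 3.13e-05). The translation repressor gene Eif4ebp1 changed by -0.56 (adjusted p = 0.000335). Ppargc1b, a coactivator of mitochondrial genes, changed by -0.70 (adjusted p = 5.32e-05). Hif1a, the regulated subunit of the hypoxia factor, changed by -0.65 (adjusted p = 0.000113) and by -1.28 after background correction.

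In the insulin, IGF and PI3K-Akt list 10 of 31 members were higher and 6 lower, or 4 and 5 without ethanol array 1 and 3 and 4 with background correction. Igf1r, the receptor of the insulin-like growth factors, was at 696, 691 and 744 on the rapamycin arrays and 396 and 456 on the ethanol arrays. All rapamycin arrays lay above both ethanol arrays, with a change of 0.74 ± 0.10 (SE, adjusted p = 2.83e-05). Irs2, the adaptor between that receptor and PI3K, rose by 0.53 (adjusted p = 0.000793). Igfbp5, a binding protein of the IGFs, was at 806, 726 and 714 on the rapamycin arrays and 1300.1 and 1687 on the ethanol arrays, and changed by -0.99 ± 0.12 (SE, adjusted p = 3.97e-06). Lower too were the kinase gene Gsk3b at -0.55 (adjusted p = 0.00045), Pik3cb, a catalytic subunit of PI3K, at -0.49 (adjusted p = 0.00114), and Pik3r3, a regulatory one, at -0.47 (adjusted p = 0.00147).

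Receptor tyrosine kinases gave 6 higher and 1 lower of 23, or 3 and 1 without ethanol array 2 and 2 and 1 with background correction. Pdgfra, a PDGF receptor of fibroblasts, was at 1268, 1114 and 1161 on the rapamycin arrays and 688 and 700.4 on the ethanol arrays, with no overlap. The change was 0.76 ± 0.10 (SE, adjusted p = 1.71e-05). Ddr1, a receptor for collagen, was at 1204, 1410.4 and 1144 on the rapamycin arrays and 722 and 606 on the ethanol arrays, a change of 0.92 ± 0.11 (SE, adjusted p = 8e-06). The ephrin receptor gene Epha2 was the lower one, at -0.52 (adjusted p = 0.00124).

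**Figure D2:**
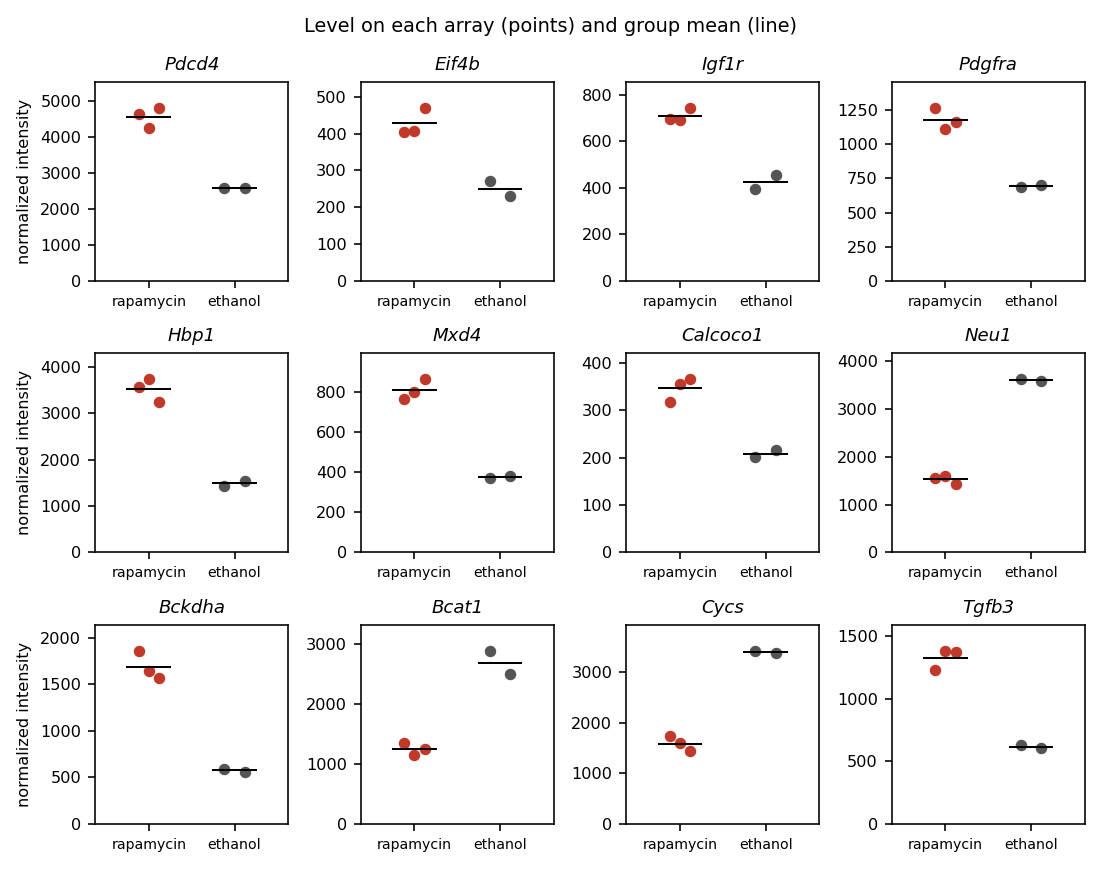
Normalized intensity (vertical axes, arbitrary linear units, each from 0) of 12 genes on the 3 rapamycin arrays (left) and the 2 ethanol arrays (right); the line is the group mean. Pdcd4, Eif4b, Igf1r, Pdgfra, Hbp1, Mxd4, Calcoco1, Bckdha and Tgfb3 are higher with rapamycin, and Neu1, Bcat1 and Cycs lower, with no overlap between the arrays of the groups.

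Some of the clearest rises were of single genes in a list of FoxO targets and in a list of genes tied to growth arrest. The FoxO list had 6 of 22 members higher and 1 lower, against 12.9% higher and 10.8% lower over all genes. Its median was 0.06, with 12 members above 0 and 10 below. Hbp1, a repressor of cell cycle genes, was at 3576, 3738 and 3247 on the rapamycin arrays and 1439 and 1547 on the ethanol arrays. Each rapamycin array was far above both ethanol arrays, and the change was 1.24 ± 0.10 (SE, adjusted p = 7.89e-08). Fbxo32, a ubiquitin ligase of muscle wasting, rose by 0.71 (adjusted p = 3.43e-05) and by 1.95 after background correction. Bcl2l11, the proapoptotic BIM, rose by 0.53 (adjusted p = 0.000704). Bcl6, a transcriptional repressor, was the lower member, at -0.50 (adjusted p = 0.00103).

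In the growth-arrest list 9 of 33 were higher and 6 lower, or 8 and 1 with background correction. The median was -0.03, with 16 members above 0 and 17 below. Mxd4, which takes the place of MYC on their shared partner MAX, was at 761, 798 and 861 on the rapamycin arrays and 369.7 and 379 on the ethanol arrays. It rose by 1.11 ± 0.10 (SE, adjusted p = 2.29e-07). Myc itself changed by -0.33 (adjusted p = 0.0353), a call lost with background correction (adjusted p = 0.108) and without ethanol array 1 (-0.23, adjusted p = 0.35), ethanol array 2 (-0.43, adjusted p = 0.057), rapamycin array 2 (-0.28, adjusted p = 0.111) or rapamycin array 3 (-0.30, adjusted p = 0.102). Ypel3, of a family tied to senescence, rose by 0.69 (adjusted p = 9.68e-05). Gas6, the ligand of the receptor AXL first found in arrested fibroblasts, was at 2815, 2857 and 2924 on the rapamycin arrays and 1585 and 1462 on the ethanol arrays, a change of 0.91 ± 0.10 (SE, adjusted p = 1.72e-06). Tsc22d1 rose by 0.61 (adjusted p = 0.000181). Arrdc4, an arrestin-domain gene that answers to glucose, changed by -0.83 (adjusted p = 8.62e-06).

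Inhibitors of cyclin-dependent kinases split. Cdkn2b, which encodes the CDK4/6 inhibitor p15, was at 4369, 5321 and 5214 on the rapamycin arrays and 3134 and 2909 on the ethanol arrays. It rose by 0.71 ± 0.11 (SE, adjusted p = 7.2e-05), and Cdkn1c, which encodes p57, by 0.49 (adjusted p = 0.00116). Cdkn1a, which encodes p21, went the opposite way, at 143, 181 and 147 on the rapamycin arrays and 445 and 529.7 on the ethanol arrays. Its change was -1.63 ± 0.12 (SE, adjusted p = 9.57e-09), and -2.58 after background correction, on all 3 of its probes. The cells lack p53, the best known activator of Cdkn1a. Among 25 genes also known as p53 targets 4 were higher and 9 lower, or 2 and 5 without ethanol array 1 and 1 and 7 with background correction. Gadd45a, a stress gene, was at 1225, 1397 and 1257 on the rapamycin arrays and 3948 and 3646 on the ethanol arrays, and changed by -1.56 ± 0.10 (SE, adjusted p = 3.8e-09). Its relative Gadd45b changed by 0.74 ± 0.12 (SE, adjusted p = 0.000156), in the other direction.

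The autophagy list leaned upward. Of its 35 tested members 15 were higher and 4 lower, with a median of 0.25, against 12.9% higher, 10.8% lower and a median of 0.02 over all genes. The median was 0.19 without ethanol array 1 and 0.30 without ethanol array 2. With background correction 5 were higher and 1 lower, a setting in which 808 of all 13752 genes were higher and 673 lower. Atg13, a subunit of the ULK1 kinase complex that mTORC1 inhibits, was at 649.5, 742 and 774 on the rapamycin arrays and 429.5 and 432 on the ethanol arrays. The groups lay apart, with a change of 0.74 ± 0.11 (SE, adjusted p = 3.28e-05). Calcoco1, a receptor for autophagy of the endoplasmic reticulum, was at 318, 356 and 365 on the rapamycin arrays and 202 and 215 on the ethanol arrays, a change of 0.73 ± 0.10 (SE, adjusted p = 3.22e-05) and of 1.11 after background correction. Fundc1, a receptor on mitochondria, was at 1496, 1565 and 1569 on the rapamycin arrays and 1064 and 861 on the ethanol arrays. It rose by 0.69 ± 0.11 (SE, adjusted p = 9.33e-05). Wipi1, which binds the lipid of the forming membrane, rose by 0.66 (adjusted p = 0.000169), and Map1lc3b, which encodes the LC3B protein attached to that membrane, by 0.66 (adjusted p = 0.000262). Sqstm1, the cargo receptor p62, moved against the list, at -0.60 (adjusted p = 0.000187). Wdr45, a relative of Wipi1 that was in no list, was among the 12 largest rises, at 1434, 1369 and 1484 on the rapamycin arrays and 614 and 557 on the ethanol arrays and 1.29 ± 0.10 (SE, adjusted p = 3.42e-08).

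The lysosome list did not lean either way, with 9 of 41 members higher, 10 lower and a median of -0.02. The counts were 2 and 6 without ethanol array 1, 6 and 5 without ethanol array 2 and 2 and 1 with background correction. Neu1, the lysosomal sialidase, was its largest fall, at 1562, 1605 and 1425 on the rapamycin arrays and 3621 and 3588 on the ethanol arrays. The change was -1.24 ± 0.10 (SE, adjusted p = 5.8e-08). Ctsf, a cysteine protease of the same organelle, was its largest rise, at 599, 577 and 594 on the rapamycin arrays and 326 and 294 on the ethanol arrays, a change of 0.93 ± 0.10 (SE, adjusted p = 1.55e-06). Idua, which degrades glycosaminoglycans, rose by 0.55 (adjusted p = 0.000674) and by 1.00 after background correction. A split by name, made after the values were seen, put 0 of 12 subunits of the V-ATPase proton pump higher and 5 lower (median -0.30), and 9 of the other 29 members higher and 5 lower (median 0.08). None of the V-ATPase subunits passed with background correction, and 3 did without ethanol array 1 or 2. The proteasome list had 0 of 36 members higher and 5 lower, or 0 and 1 with background correction. The share lower, 13.9%, was near the 10.8% over all genes, and the median was -0.11 (-0.10 without ethanol array 1). The largest of these falls was that of Nfe2l1, the factor that drives proteasome genes and not a subunit, at -0.87 ± 0.10 (SE, adjusted p = 2.73e-06).

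**Figure D3:**
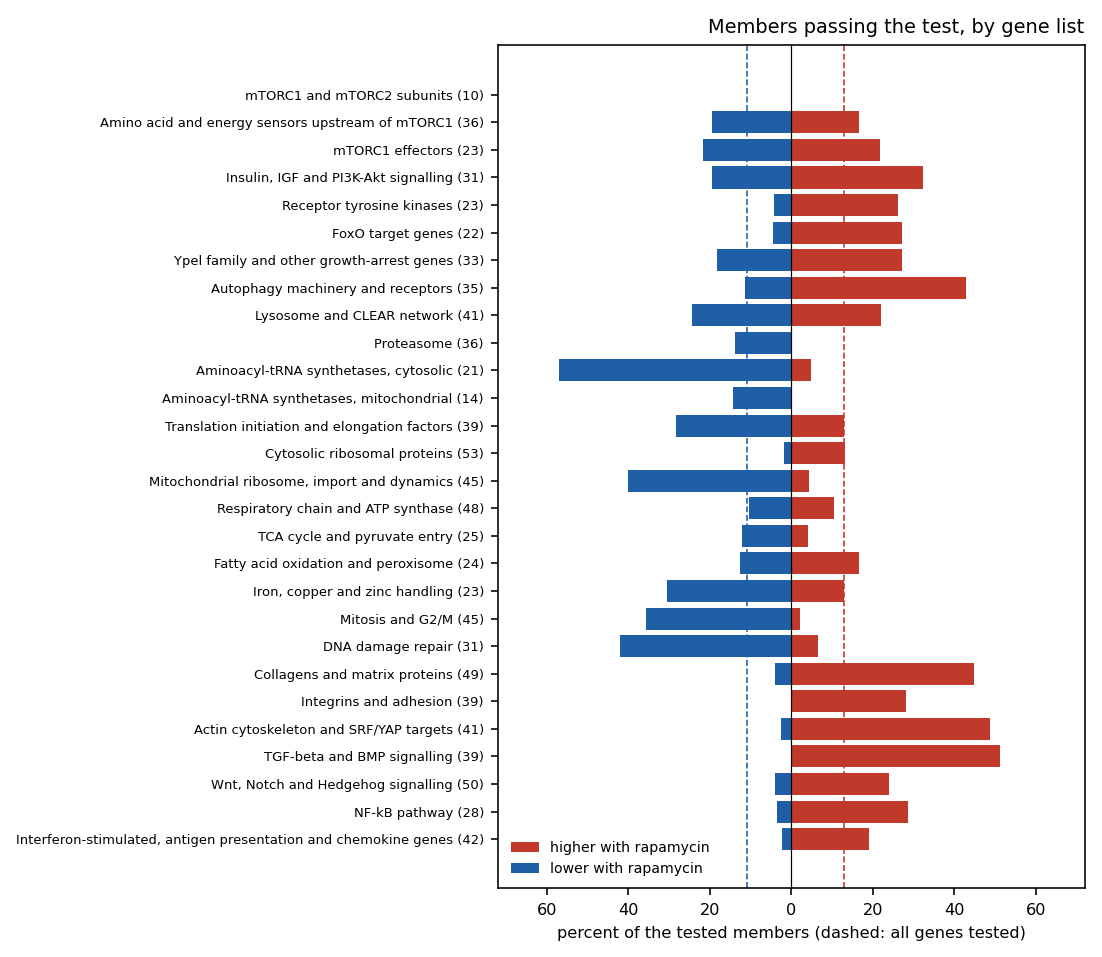
Percent of the tested members of 28 gene lists that were higher (red, right) or lower (blue, left) with rapamycin than with ethanol at an adjusted p of 0.05; the number of members tested stands after each name. Dashed lines mark the shares over all 13752 genes, 12.9% higher and 10.8% lower. Of those shown, the cytosolic tRNA synthetase, repair, mitochondrial ribosome and import, and mitosis lists extend furthest left. The autophagy, matrix, actin and TGF-beta lists extend furthest right. Function lists not shown include ATF4 targets (27 of 35 lower), cholesterol (14 of 18), glycolysis (13 of 21) and replication (27 of 46).

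Of 21 cytosolic synthetases, which charge tRNAs, and their accessory proteins, 12 were lower and 1 higher, with a median of -0.50. Aars, the alanyl-tRNA synthetase whose promoter stands above, was at 3611, 3292 and 3319 on the rapamycin arrays and 7709.9 and 7591 on the ethanol arrays. Its change was -1.17 ± 0.10 (SE, adjusted p = 1.07e-07). Iars, for isoleucine, was at 1583, 1352 and 1629.9 on the rapamycin arrays and 2932 and 2692 on the ethanol arrays, a change of -0.89 ± 0.11 (SE, adjusted p = 6.14e-06). Wars, for tryptophan, was at 393, 522 and 466 on the rapamycin arrays and 846 and 934 on the ethanol arrays. It changed by -0.96 ± 0.12 (SE, adjusted p = 6.15e-06). Vars (valine) changed by -0.83 (adjusted p = 6.67e-06), Lars (leucine) by -0.82 (adjusted p = 1.3e-05) and Farsb (phenylalanine) by -0.74 (adjusted p = 8.89e-05). Of the scaffold proteins of the multisynthetase complex, Eef1e1 changed by -0.83 (adjusted p = 4.09e-05) and Aimp2 by -0.68 (adjusted p = 0.000198). Their mitochondrial counterparts gave 0 higher and 2 lower of 14 (median -0.08), or 0 and 1 without ethanol array 2, 0 and 1 without rapamycin array 3 and 0 and 1 with background correction. Mars2, for methionine, was the clearer of these, at -0.78 (adjusted p = 4.17e-05, or -1.47 after background correction).

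The first enzymes of branched-chain amino acid breakdown changed in opposite directions. Bcat1, the cytosolic transaminase that starts it, was at 1353, 1144 and 1258 on the rapamycin arrays and 2888 and 2500.0 on the ethanol arrays. The change was -1.11 ± 0.11 (SE, adjusted p = 4.83e-07). Bckdha, a subunit of the dehydrogenase that commits the carbon to breakdown, was at 1856, 1640.3 and 1563 on the rapamycin arrays and 591 and 563 on the ethanol arrays. It had the fourth largest rise of all genes, 1.54 ± 0.11 (SE, adjusted p = 4.73e-09). Abat, which breaks down the transmitter GABA, rose by 0.62 (adjusted p = 0.000325). In the wider list of proline, glutamine, aspartate and urea-cycle enzymes 3 of 21 were higher and 8 lower, or 2 and 3 with background correction. Of the polyamine enzymes, 2 of 14 were higher and 3 lower, or 0 and 1 without ethanol array 1, 1 and 1 without ethanol array 2 and 0 and 1 with background correction. Srm, the spermidine synthase, was at 1855, 2349 and 1943 on the rapamycin arrays and 3765 and 3904 on the ethanol arrays, a change of -0.91 ± 0.11 (SE, adjusted p = 6.44e-06).

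Mitochondrial genes did not move as a whole. In the list of the mitochondrial ribosome, import and dynamics 18 of 45 members were lower and 2 higher, with a median of -0.27. With background correction 11 were lower and none higher. Timm8a1, a small chaperone that escorts proteins between the mitochondrial membranes, was at 859.8, 1018 and 925 on the rapamycin arrays and 2144 and 2147 on the ethanol arrays, a change of -1.20 ± 0.10 (SE, adjusted p = 1.14e-07). Its relatives Timm9 and Timm10 changed by -0.69 (adjusted p = 0.000125) and -0.60 (adjusted p = 0.000323). Lonp1, the protease of the matrix, was at 814, 903 and 884 on the rapamycin arrays and 1674 and 1928 on the ethanol arrays. It changed by -1.05 ± 0.11 (SE, adjusted p = 5.65e-07). Hspa9, the chaperone that pulls proteins into the matrix, was at 8256, 7366 and 7950.3 on the rapamycin arrays and 15409 and 13324 on the ethanol arrays. The change was -0.87 ± 0.11 (SE, adjusted p = 6.06e-06), and Hspd1, the folding chaperone there, changed by -0.60 (adjusted p = 0.000186). Dnm1l, the GTPase that divides mitochondria, changed by -0.70 (adjusted p = 9.72e-05). Mrpl12, Mrps18b and Mrps22 of the mitochondrial ribosome changed by -0.63 (adjusted p = 0.000125), -0.58 (adjusted p = 0.000234) and -0.57 (adjusted p = 0.000558).

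The respiratory chain list, in contrast, had 5 of 48 members higher and 5 lower and a median of 0.03, near the shares over all genes. Its counts were 1 and 3 without ethanol array 1, 0 and 3 without ethanol array 2 and 0 and 3 with background correction. The 3 clear falls sat around cytochrome c: the carrier itself, Cycs, and Cyc1 and Uqcrb of complex III, which feeds it. Cycs was at 1729, 1592 and 1450.1 on the rapamycin arrays and 3421 and 3387 on the ethanol arrays, with a change of -1.10 ± 0.10 (SE, adjusted p = 3.51e-07). Uqcrb was at 415, 386 and 407 on the rapamycin arrays and 666 and 692 on the ethanol arrays, a change of -0.75 ± 0.10 (SE, adjusted p = 1.48e-05). Cyc1 changed by -0.74 (adjusted p = 2.03e-05). Of 24 tested Nduf subunits of complex I, grouped after the values were seen, 3 were higher and 1 lower, and with background correction 0 and 0. The share higher was near the 12.9% over all genes. In the TCA cycle list 1 of 25 was higher and 3 lower, or 0 and 2 without ethanol array 1, 1 and 1 without ethanol array 2, 1 and 1 without rapamycin array 2 and 0 and 1 with background correction, and Idh3a, a subunit of the NAD-linked isocitrate dehydrogenase, changed by -0.69 (adjusted p = 4.49e-05). Of the carriers of the inner membrane, Slc25a33, for pyrimidine nucleotides, was at 479, 470.4 and 409.5 on the rapamycin arrays and 1307 and 1359.8 on the ethanol arrays, a change of -1.56 ± 0.10 (SE, adjusted p = 3.8e-09), and Slc25a10, for dicarboxylates, changed by -0.78 (adjusted p = 1.46e-05).

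**Figure D4:**
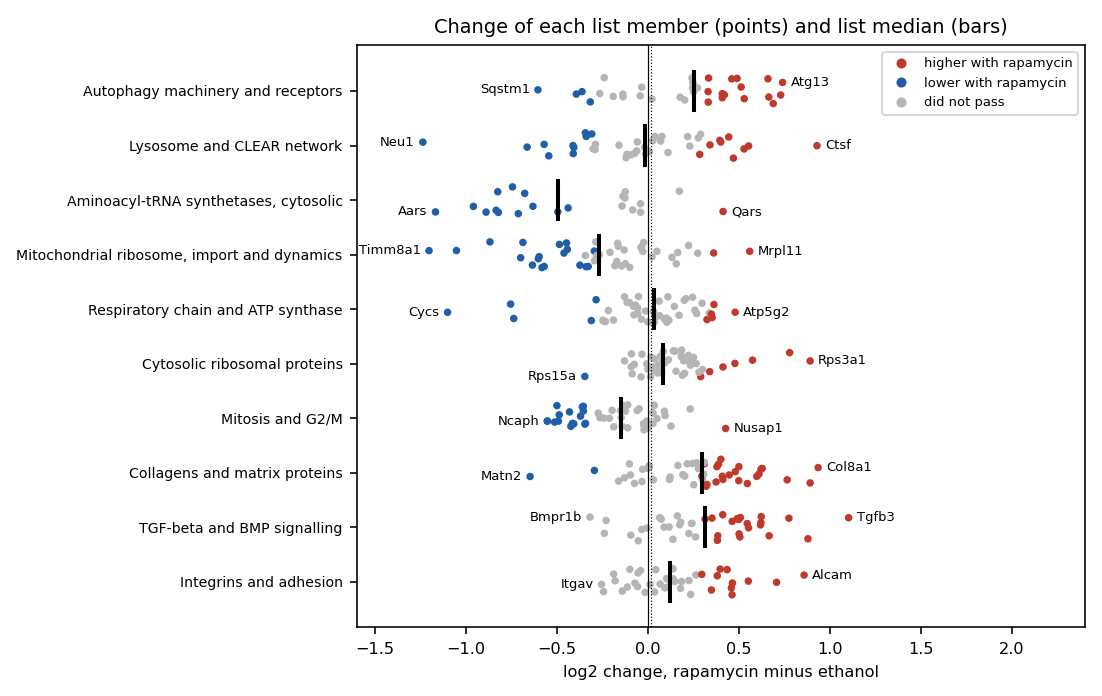
Log2 change, rapamycin minus ethanol (horizontal axis), of each tested member of 10 gene lists; red members are higher, blue lower and grey did not pass. Black bars are list medians, the dotted line is the median of all genes (0.02), and the members at both ends of each list are named. The medians of the synthetases and of the mitochondrial ribosome and import list lie to the left of 0, that of the respiratory chain near 0, and those of the matrix, TGF-beta and autophagy lists to the right, with members on both sides of 0 in each.

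Of the cytosolic translation machinery, initiation and elongation factors gave 5 higher and 11 lower of 39, or 1 and 5 without ethanol array 1, 2 and 6 without ethanol array 2 and 1 and 3 with background correction. Ppp1r15a, the phosphatase subunit GADD34 that reverses the block on the initiation factor eIF2, was at 424, 404 and 383 on the rapamycin arrays and 1087 and 1115 on the ethanol arrays, a change of -1.45 ± 0.10 (SE, adjusted p = 5.88e-09). Eif2b3, a subunit of the exchange factor of eIF2, was at 704, 648 and 624 on the rapamycin arrays and 1229 and 1334 on the ethanol arrays. It changed by -0.96 ± 0.10 (SE, adjusted p = 1.37e-06). Eef2, which moves the ribosome along the message, rose by 0.65 (adjusted p = 0.000128). Ribosomal protein genes gave 7 higher and 1 lower of 53, with a median of 0.08. The share higher was close to that over all genes, and the share lower was under the 10.8% over all genes. Over all genes 7372 lay above 0 and 6374 below, and of the ribosomal protein genes 44 and 9. Their counts were 3 and 0 without ethanol array 2 and 2 and 0 with background correction. Rps3a1 rose by 0.89 (adjusted p = 1.29e-05) and Rpl22 by 0.78 (adjusted p = 1.75e-05), with the reserve that these genes have many near-identical copies in the genome.

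In the mitosis list 16 of 45 were lower and 1 higher, at a median of -0.15. These falls were small, and the counts were 0 and 11 without ethanol array 1, 0 and 5 without ethanol array 2 and 0 and 2 with background correction, a setting in which 673 of all 13752 genes were lower. Ncaph, a condensin subunit, was at 910.4, 899.8 and 1019 on the rapamycin arrays and 1451 and 1316 on the ethanol arrays, a change of -0.55 ± 0.10 (SE, adjusted p = 0.000556). Espl1, the protease separase, changed by -0.51 (adjusted p = 0.000639). In the repair list 13 of 31 were lower and 2 higher, or 1 and 7 without ethanol array 1 and 1 and 7 with background correction. Xrcc6, the Ku70 subunit of break repair, was at 3814, 3909.6 and 3992 on the rapamycin arrays and 7010.1 and 6702 on the ethanol arrays. It changed by -0.81 ± 0.10 (SE, adjusted p = 6.21e-06). Ung, which removes uracil from DNA, was at 997, 1149 and 1075 on the rapamycin arrays and 1859 and 1753 on the ethanol arrays, a change of -0.75 ± 0.10 (SE, adjusted p = 2.27e-05), and Tipin, of the fork protection complex, changed by -0.64 (adjusted p = 7.36e-05). Ercc1, a nuclease subunit of excision repair, rose by 0.66 (adjusted p = 8.04e-05).

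The replication list, in which 27 of 46 fell and 1 rose (1 higher and 17 lower with background correction), was led by chromatin assembly and origin firing. Chaf1b, of the assembly factor CAF-1, was at 1378, 1619 and 1491 on the rapamycin arrays and 3219 and 3013 on the ethanol arrays. Its change was -1.06 ± 0.10 (SE, adjusted p = 4.99e-07). Mcm10 and Cdc45, which start the helicase at origins, changed by -0.84 (adjusted p = 1.1e-05) and -0.83 (adjusted p = 2.76e-05), and Uhrf1, which recruits the maintenance methyltransferase, by -0.90 (adjusted p = 4.57e-05). The methyltransferase gene Dnmt1 itself changed by -0.54 (adjusted p = 0.000582). Rrm1, the large subunit of ribonucleotide reductase, was the one that rose, by 0.58 (adjusted p = 0.000498).

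Of 49 tested collagens and matrix proteins 22 were higher and 2 lower, with a median of 0.30 and counts of 12 and 1 without ethanol array 1 and 9 and 2 with background correction. Col8a1, a network-forming collagen, was at 1572, 1842 and 1855 on the rapamycin arrays and 855 and 981 on the ethanol arrays, a change of 0.94 ± 0.11 (SE, adjusted p = 3.88e-06). Bgn, the proteoglycan biglycan, was at 3218, 2846 and 2805 on the rapamycin arrays and 1438 and 1759.8 on the ethanol arrays. It rose by 0.89 ± 0.11 (SE, adjusted p = 8.04e-06). Nid2, which links the networks of the basement membrane, rose by 0.77 (adjusted p = 1.72e-05), Col3a1 by 0.63 (adjusted p = 0.000412), the fibrillin gene Fbn1 by 0.62 (adjusted p = 0.000299) and the fibronectin gene Fn1 by 0.55 (adjusted p = 0.00042). Matn2, a matrilin that joins matrix filaments, changed by -0.65 ± 0.11 (SE, adjusted p = 0.000187).

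Among enzymes that remodel the matrix 9 of 38 were higher and 7 lower. Without ethanol array 1 or 2 they were 7 and 4, and with background correction 5 and 4. Mmp13, a collagenase, was at 1035, 1112 and 916 on the rapamycin arrays and 2219.9 and 3246 on the ethanol arrays, a change of -1.40 ± 0.13 (SE, adjusted p = 3.48e-07). Loxl1, which crosslinks elastin, was at 10207, 8603 and 10777 on the rapamycin arrays and 5927 and 5279 on the ethanol arrays. It rose by 0.81 ± 0.11 (SE, adjusted p = 2.52e-05). Bmp1, which trims procollagen, rose by 0.67 (adjusted p = 8.35e-05), Mmp23 by 1.01 (adjusted p = 9.75e-06) and Timp3, an inhibitor of metalloproteinases, by 0.64 (adjusted p = 0.000126). The prolyl hydroxylase gene P4ha2, whose enzyme modifies new collagen chains, changed by -0.93 (adjusted p = 2.36e-06).

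In the TGF-beta and BMP list 20 of 39 members were higher and none lower, with a median of 0.31. The counts were 13 and 0 without ethanol array 2 and 9 and 0 with background correction. Tgfb3 was at 1226, 1381 and 1376 on the rapamycin arrays and 628 and 607 on the ethanol arrays. The groups did not overlap, and it rose by 1.10 ± 0.10 (SE, adjusted p = 2.57e-07). Bmp4 was at 4962, 5167 and 4335 on the rapamycin arrays and 2504 and 2728 on the ethanol arrays, a change of 0.88 ± 0.11 (SE, adjusted p = 6.06e-06), and Tgfb2 changed by 0.55 (adjusted p = 0.000487). Of the proteins that hold these ligands in the matrix or bind them, Ltbp3 rose by 0.62 (adjusted p = 0.000314) and Fstl1 by 0.77 ± 0.10 (SE, adjusted p = 1.72e-05). Id3, a target gene of BMP signalling and a repressor of bHLH factors, rose by 0.55 (adjusted p = 0.000416). Scx, the bHLH factor scleraxis of tendon cells, was in no list and among the 12 largest rises, at 774, 880.0 and 847 on the rapamycin arrays and 307 and 301 on the ethanol arrays, a change of 1.45 ± 0.10 (SE, adjusted p = 6.59e-09).

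Integrins and adhesion genes gave 11 higher and 0 lower of 39 (median 0.12), or 6 and 0 without ethanol array 1, 6 and 0 without ethanol array 2 and 2 and 0 with background correction. Alcam, an adhesion molecule of the immunoglobulin family, was at 678, 789.7 and 708 on the rapamycin arrays and 393 and 405 on the ethanol arrays. It rose by 0.86 ± 0.10 (SE, adjusted p = 5.6e-06), and Ilk, a scaffold at integrin tails, by 0.55 (adjusted p = 0.000483). Of the actin genes and targets of SRF and YAP 20 of 41 were higher and 1 lower (median 0.29), or 12 and 0 without ethanol array 1, 11 and 0 without ethanol array 2 and 7 and 0 with background correction. Myl9, a light chain of contractile myosin, was at 254, 266 and 246 on the rapamycin arrays and 150.0 and 140.1 on the ethanol arrays, a change of 0.82 ± 0.10 (SE, adjusted p = 6.91e-06) and of 1.58 after background correction. Nuak2, a kinase and YAP target, rose by 0.73 ± 0.10 (SE, adjusted p = 2.91e-05). Myh10, a nonmuscle myosin heavy chain, rose by 0.65 (adjusted p = 6.37e-05), the calponin gene Cnn2 by 0.68 (adjusted p = 0.000105) and the filamin gene Flna by 0.59 (adjusted p = 0.000342). Synpo, which encodes the actin-binding protein synaptopodin and was in no list, had the largest rise but one of all genes, at 4038, 4097 and 4284 on the rapamycin arrays and 1544 and 1198 on the ethanol arrays, a change of 1.60 ± 0.11 (SE, adjusted p = 6.59e-09).

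Of the Wnt, Notch and Hedgehog genes 12 of 50 were higher and 2 lower, or 8 and 1 with background correction. Frat2, whose protein keeps GSK3 from beta-catenin, was at 387, 432 and 429 on the rapamycin arrays and 163 and 144 on the ethanol arrays. The change was 1.44 ± 0.10 (SE, adjusted p = 1.07e-08), or 2.36 after background correction. Sufu, a brake on Hedgehog signalling, rose by 0.69 ± 0.11 (SE, adjusted p = 8.42e-05), and the Hedgehog factor gene Gli2 by 0.60 (adjusted p = 0.000351). Axin2, a feedback target of Wnt signalling, rose by 0.61 (adjusted p = 0.000156) and the receptor gene Fzd2 by 0.66 (adjusted p = 0.000247). The Notch targets parted: Hes1 rose by 0.60 (adjusted p = 0.000552) and Hey1 was at 164, 165 and 167 on the rapamycin arrays and 338 and 338 on the ethanol arrays, a change of -1.03 ± 0.10 (SE, adjusted p = 3.48e-07) and of -1.71 after background correction.

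Among secreted factors the counts were near each other, with 8 of 44 higher and 9 lower, or 3 and 7 with background correction. The lower ones included Angptl6, at 264, 314 and 264 on the rapamycin arrays and 950.5 and 965 on the ethanol arrays, a change of -1.77 ± 0.11 (SE, adjusted p = 8.1e-10). Edn1, the vasoconstrictor endothelin, was higher, by 1.02 ± 0.10 (SE, adjusted p = 7.77e-07), and so was the alarmin gene Il33, at 2307, 2103 and 2417 on the rapamycin arrays and 1138 and 1027 on the ethanol arrays, by 1.07 ± 0.10 (SE, adjusted p = 4.64e-07). In the list of interferon-stimulated, antigen presentation and chemokine genes 8 of 42 were higher and 1 lower. Gbp2, a GTPase induced by interferon, rose by 1.11 ± 0.12 (SE, adjusted p = 9.21e-07), and its close relative Gbp2b, whose probe may share sequence with it, by 1.50 ± 0.11 (SE, adjusted p = 1.07e-08). Serping1, an inhibitor of complement, rose by 0.71 (adjusted p = 3.11e-05) and Cxcl12, a chemokine of stromal cells, by 0.75 (adjusted p = 3.43e-05). Ccl7, a chemokine for monocytes, was the lower one, at 1064, 1281 and 982 on the rapamycin arrays and 2407 and 2543 on the ethanol arrays, a change of -1.17 ± 0.11 (SE, adjusted p = 4.68e-07).

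Among immediate early genes 5 of 34 were higher and 6 lower, or 3 and 4 without ethanol array 2. Fosl2, a subunit of AP-1, was at 2133, 2456 and 2532 on the rapamycin arrays and 1304 and 1113 on the ethanol arrays and rose by 0.97 ± 0.11 (SE, adjusted p = 2.66e-06). Klf4 was at 156, 192 and 188 on the rapamycin arrays and 391 and 477 on the ethanol arrays. It changed by -1.28 ± 0.12 (SE, adjusted p = 2.05e-07), or -1.96 after background correction, and its relative Klf2 rose by 0.56 (adjusted p = 0.000431, or 1.17 after background correction). Dusp4, a phosphatase that turns off ERK, rose by 0.54 (adjusted p = 0.000815). In the apoptosis list 6 of 25 were higher and 3 lower. Bmf and Bad, proapoptotic BH3 proteins, rose by 0.97 (adjusted p = 1.05e-06, or 1.49 after background correction) and 0.64 (adjusted p = 0.000238), while Bid, another of them, changed by -0.64 (adjusted p = 0.00012).

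Lipid genes beyond the sterol pathway changed singly. Dgat2, which makes triglycerides, was at 209, 236 and 229.9 on the rapamycin arrays and 455 and 469 on the ethanol arrays, a change of -1.04 ± 0.10 (SE, adjusted p = 4.67e-07). In its list of 38 phospholipid, triglyceride and sphingolipid enzymes 2 were higher and 3 lower, or 1 and 2 without ethanol array 2 and 0 and 1 with background correction. Elovl6, which lengthens fatty acids, changed by -0.67 (adjusted p = 8.51e-05). Stard5, a cholesterol-binding protein in no list, was at 311, 373 and 386 on the rapamycin arrays and 1200.1 and 1111 on the ethanol arrays. It changed by -1.70 ± 0.11 (SE, adjusted p = 2.8e-09) on both of its probes. Lrp8, a receptor for apolipoprotein E, changed by -1.06 ± 0.10 (SE, adjusted p = 2.71e-07) and by -2.59 after background correction, with 1 of its 3 probes passing. Mfsd2a, a carrier of lysophospholipids, changed by -1.12 ± 0.10 (SE, adjusted p = 2.17e-07). Fatty acid oxidation and peroxisome genes gave 4 higher and 3 lower of 24, or 0 and 2 without ethanol array 1, 2 and 0 without ethanol array 2, 1 and 2 without rapamycin array 2, 1 and 2 without rapamycin array 3 and 0 and 0 with background correction.

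In glycogen metabolism Stbd1, which tethers glycogen to membranes, was at 257, 263 and 255 on the rapamycin arrays and 890.1 and 1079 on the ethanol arrays, a change of -1.92 ± 0.11 (SE, adjusted p = 2.3e-10). Pygb, a glycogen phosphorylase, rose by 0.61 (adjusted p = 0.000231). Gfpt2, the entry enzyme of hexosamine synthesis, changed by -0.87 ± 0.10 (SE, adjusted p = 5.05e-06), and Rpia of the pentose phosphate pathway by -0.91 (adjusted p = 1.72e-06). Of the iron, copper and zinc genes 3 of 23 were higher and 7 lower, or 1 and 4 without ethanol array 1, 0 and 4 without ethanol array 2 and 0 and 2 with background correction. Tfrc, the receptor for iron-loaded transferrin, was at 855, 963 and 984 on the rapamycin arrays and 1596 and 1744 on the ethanol arrays. Its change was -0.84 ± 0.10 (SE, adjusted p = 7.91e-06). Hmox1, which opens heme, was at 163, 171 and 187 on the rapamycin arrays and 409.9 and 344 on the ethanol arrays, a change of -1.12 ± 0.11 (SE, adjusted p = 4.51e-07) and of -1.77 after background correction. Steap1, a membrane protein of the cell surface, was among the 12 largest falls, at -1.67 ± 0.11 (SE, adjusted p = 3.75e-09). Of the glutathione transferases, Gsta4 rose by 0.74 (adjusted p = 2.36e-05) and Gstm1 by 0.61 (adjusted p = 0.0002), in a list with 5 of 33 higher and 6 lower, or 2 and 4 without ethanol array 1, 3 and 2 without ethanol array 2, 2 and 5 without rapamycin array 3 and 2 and 3 with background correction.

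Nuclear regulators moved singly too. Hdac5, a deacetylase, rose by 0.71 ± 0.11 (SE, adjusted p = 0.000113), and Smarca2, an ATPase of chromatin remodelling, by 0.58 (adjusted p = 0.000262). Kmt5a, a histone methyltransferase of dividing cells, changed by -0.60 (adjusted p = 0.000216), and Sirt7, a nucleolar deacetylase, by -0.60 (adjusted p = 0.000348). Vdr, the vitamin D receptor, was at 1503, 1638 and 1784 on the rapamycin arrays and 981 and 725 on the ethanol arrays. It rose by 0.96 ± 0.12 (SE, adjusted p = 1.01e-05), as did its partner gene Rxrb, by 0.60 (adjusted p = 0.000387). Among ubiquitin ligases and adaptors, 10 of 49 were higher and 8 lower, or 4 and 6 without ethanol array 1, 4 and 4 without ethanol array 2 and 4 and 3 with background correction. Rnf167 was at 640.2, 759 and 784 on the rapamycin arrays and 352 and 323 on the ethanol arrays, a change of 1.10 ± 0.11 (SE, adjusted p = 5.49e-07), and Cul7, a scaffold of such ligases, changed by 0.97 (adjusted p = 1.08e-06). Socs2, an inhibitor of cytokine receptors, changed by -0.83 (adjusted p = 1.09e-05).

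Of the genes that passed, 2621 were in none of the 64 lists. The 15 rises among them with the smallest adjusted p ranged from Trav9n-4 at 1.27 (adjusted p = 6.6e-08) to Olfml3 at 1.00 (adjusted p = 5.65e-07). Trav9n-4 is a gene segment of the T cell receptor, which fibroblasts do not use, and its 1 probe stood at 792, 848 and 713 on the rapamycin arrays and 315 and 333 on the ethanol arrays. Ing4, which reads methylated histone H3, was at 1916, 2481 and 2280.2 on the rapamycin arrays and 987 and 966 on the ethanol arrays. All 4 of its probes passed, and the change was 1.18 ± 0.11 (SE, adjusted p = 3.61e-07). Kiz, a centrosome protein, rose by 1.16 (adjusted p = 2.05e-07) and Hmgxb4, an HMG-box protein, by 1.08 (adjusted p = 4.39e-07), each on both probes. The secreted protein gene C1qtnf1 rose by 1.02 ± 0.10 (SE, adjusted p = 4.1e-07) and the keratin gene Krt7 by 1.02 ± 0.10 (SE, adjusted p = 4.92e-07), or 1.78 after background correction. The other 8 were Ccpg1os, Mettl27, Lst1, 3110078M01Rik, Ly6f, Abtb1, D9Ertd392e and Gm5617.

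Of the 15 falls outside the lists with the smallest adjusted p, 5 are described with their known roles. Mtbp, which helps to start replication, was at 566, 544 and 567 on the rapamycin arrays and 1397 and 1398 on the ethanol arrays. It changed by -1.32 ± 0.10 (SE, adjusted p = 1.46e-08) on all 3 probes. Recql4, a helicase at origins, was at 281, 264 and 274 on the rapamycin arrays and 685 and 654 on the ethanol arrays, a change of -1.30 ± 0.10 (SE, adjusted p = 2.27e-08), with 2 of 3 probes passing. Mybl2, a factor of late cell cycle genes, changed by -1.11 ± 0.10 (SE, adjusted p = 2.57e-07), also on 2 of 3 probes. Chchd10, a protein between the mitochondrial membranes, was at 4964, 5019 and 5131 on the rapamycin arrays and 10770.1 and 11714 on the ethanol arrays. The change was -1.16 ± 0.10 (SE, adjusted p = 1.11e-07). Acot2, a mitochondrial thioesterase of fatty acids, changed by -1.12 ± 0.10 (SE, adjusted p = 1.58e-07), and by -2.37 after background correction, with 1 of 3 probes passing. The other 10 were Slc45a3, Stambpl1, Niban, Mllt11, Reep6, Tex30, H2ac12 and Pla2g12a, beside Lrp8 and Mfsd2a given above.

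The largest rise of all was that of 3526401B18Rik, a gene with no given function, at 574, 582 and 659 on the rapamycin arrays and 194 and 181 on the ethanol arrays, a change of 1.69 ± 0.10 (SE, adjusted p = 1.27e-09). Tmem204, a membrane protein, was at 405, 569 and 446 on the rapamycin arrays and 168 and 150.1 on the ethanol arrays, a change of 1.56 ± 0.13 (SE, adjusted p = 4.15e-08) and of 2.45 after background correction. Sema3c, a guidance signal, rose by 1.36 ± 0.13 (SE, adjusted p = 4.1e-07) with 1 of its 2 probes passing, and Muc16, a mucin of cell surfaces, by 1.38 ± 0.10 (SE, adjusted p = 1.34e-08). The remaining members of the 12 largest rises, 1110046J11Rik and 2810410A03Rik, are also without a given function here. Ypel1 was at 289, 256 and 230.3 on the rapamycin arrays and 105 and 115 on the ethanol arrays. It was not well above background on either ethanol array, and the rise was at least 2.30-fold (adjusted p = 1.85e-07). That bound sets the mean of the rapamycin arrays against the higher of the gene's own signal and the lowest signal above background on each ethanol array.

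Fibroblast markers were present, as the label of the line has it. Of 15 on the array 13 were above background on all 5 arrays, while Fap and Lum were above it on none. The summed intensity of the 15 was 35010 to 37325 with rapamycin and 28734 to 29242 with ethanol. Sums here add the uncorrected signals of all markers of a list on the array, also those below background. With array medians of 111.6 to 112.4, background makes up much of the smallest sums. Of 13 fibroblast markers tested, 5 were higher and 1 lower: S100a4 by 0.95 (adjusted p = 1.91e-05), and Pdgfra, Col3a1, Fn1 and Col1a1 with it, against Twist2. Neither Col1a1 nor Twist2 passed with background correction. The call of Col1a1, at 0.31, was lost without ethanol array 1 (0.27), ethanol array 2 (0.35), rapamycin array 1 (0.21) or rapamycin array 3 (0.35), and that of Twist2, at -0.35, without ethanol array 2 (-0.19), rapamycin array 2 (-0.33) or rapamycin array 3 (-0.35). Of 10 macrophage markers on the array 4 were above background on all 5 arrays, and Ptprc, Adgre1, Lyz2, Fcgr1 and Tyrobp on none. They had 0 of 4 tested members passing, and sums of 1202 to 1276 with rapamycin and 1212 to 1236 with ethanol. Endothelial markers had 2 of 10 above background on all 5 arrays, and Tie1 and Emcn on none. Of those tested 0 of 7 passed, with sums of 1184 to 1207 with rapamycin and 1188 to 1193 with ethanol. Muscle markers had 3 of 10 above background on all 5 arrays, and Myod1, Myf5, Ckm, Acta1, Myh3 and Actc1 on none. Of those tested 0 of 3 passed, with sums of 1233 to 1296 with rapamycin and 1172 to 1225 with ethanol. Adipocyte markers had 2 of 10 above background on all 5 arrays, and Adipoq, Fabp4, Cidec, Plin1, Plin4 and Retn on none. Of those tested 0 of 4 passed, with sums of 10822 to 12573 with rapamycin and 12272 to 13628 with ethanol. Epithelial markers had 6 of 10 above background on all 5 arrays. Of 6 epithelial markers tested 2 were higher and 1, Krt19, was lower. The call of Krt19 was lost with background correction and without rapamycin array 1 or rapamycin array 3. No tested member of this list fell further than -0.29. Krt14 was at 1648, 2259 and 1790.0 on the rapamycin arrays and 848 and 838 on the ethanol arrays, a change of 1.16 ± 0.12 (SE, adjusted p = 9.01e-07). Krt18 changed by 0.74 (adjusted p = 3.57e-05), while Epcam, Krt5, Cldn4 and Esrp1 were above background on no array. Sums for the epithelial list were 6854 to 8014 with rapamycin and 6074 to 6148 with ethanol, and their part in other results was not tested.

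Values from the Crebl2 siRNA arrays are set beside these without a test. Its 3 rapamycin arrays and replicate 3 of its ethanol arrays stand apart from the other 7 arrays of the series. Log2 levels correlated at 0.989 to 0.996 within these 4, at 0.982 to 0.997 within the 7 and at 0.934 to 0.954 between them, so only these 4 were set against each other, and no array is shared with the comparison above. Of the 1778 genes higher with luciferase siRNA, 77.4% were above that single ethanol array on all 3 rapamycin arrays, against 38.2% of all genes tested. Of the 1490 lower genes, 64.5% were below it on all 3, against 25.3% of all genes. The median difference, rapamycin minus that ethanol array, was 0.27 for the first set, -0.18 for the second and 0.04 for all genes. Both shares rest on 1 ethanol array. Bckdha was at 1615, 1653 and 1679.7 on the Crebl2 siRNA arrays with rapamycin and 655 on replicate 3 of Crebl2 siRNA with ethanol. Hbp1 was at 2936, 2657 and 2696 on the Crebl2 siRNA arrays with rapamycin and 1409 on replicate 3 of Crebl2 siRNA with ethanol. Neu1 was at 1536, 1602 and 1511 on the Crebl2 siRNA arrays with rapamycin and 1788 on replicate 3 of Crebl2 siRNA with ethanol. These 3 genes lay on the same side there as with luciferase siRNA, but Neu1 by a much smaller gap.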

How the data were processed

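Per the file headers, the authors deposited normalized linear intensities of each probe on each array, together with a detection p-value for signal above background. How they were scanned and normalized is not given in the sources used here. The deposited series matrix held the same intensities (0 values different). The deposited non-normalized table was not used, since its probe identifiers are misplaced against its values. Cells, siRNA and treatment are per the labels, and RNA was amplified with a biotin-labelling kit.

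Of 46237 probes, 35784 had 1 gene symbol, 0 several and 10453 none, and 28620 were matched by Entrez identifier to a current gene with 0 symbols changed. Probes above background (detection p under 0.05) on at least 2 of the 5 arrays were kept, 23882 in all and 19978 with a symbol. The probe with the highest mean stood for its symbol, which gave 13752 genes. The log2 intensities (values under 10 set to 10, with 76.7 the lowest present) entered lmFit and eBayes of limma 3.58.1 under R 4.3.3 with 2 groups and no block, 3 residual and 16.5 prior degrees of freedom, and Benjamini-Hochberg adjustment over all genes at 0.05. The script was tested on simulated data. Same-numbered arrays of the groups did not deviate together (correlations of -0.0194 and 0.0175), so the numbers were not taken as pairs.

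Genes are named by rule: the 12 largest rises and falls, members of lists (array values for up to 4 per list with the smallest adjusted p), and, outside lists, the 15 smallest adjusted p in each direction. The members, the 64 lists (58 of functions, 6 of cell types) and the rule were chosen with earlier results of these data known. Of 2188 listed genes 2022 were on the array. Lists are described by counts and medians, with no test of the list. A gene not above background in a group has only a bound there. Background correction used nec of limma (normexp from the detection p-values, offset 16). The 15 alternatives are given in the closing section.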

Additional observations from a re-analysis of the deposited data

How the results depend on the processing

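The numbers of genes passing, higher and lower stayed within 1.5 times of 3268, 1778 and 1490 under the 7 arrays that lay together, no filter, a stricter filter, quantile or median scaling, trended and robust moderation, and testing every probe. With all 11 arrays in 1 fit they were 1742, 906 and 836, and with background correction 1481, 808 and 673. Leaving out 1 array gave 1791 to 3206 genes, 938 to 1889 higher and 846 to 1439 lower, and the lone ethanol array left in 2 of these fits was assumed to vary like the rapamycin arrays. With the replicate number as a block, 2978 genes passed, 1605 higher and 1373 lower. The share of higher genes was 54.4%, and 45.4% with median scaling. Of 690 named or listed genes that passed, each kept its sign under every alternative that tested it, except Vmp1, which had -0.60 by another probe when every probe was tested. Calls were lost for 358 of them with background correction, 258 with all 11 arrays, 242 without ethanol array 1 and 250 without ethanol array 2. Among 64 lists the count passing moved by over 1.5 times in 49 with background correction and in 36 with all 11 arrays. The causes were not tested. Signal over background limits the folds of dim genes.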
